A study of Mus musculus with 4 samples.

Results

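Protocadherins are cadherin-type adhesion proteins of the cell surface, and the data are their ribosome footprint levels in dorsal root ganglia, the clusters of sensory neuron cell bodies beside the spinal cord. A footprint level combines the amount of a transcript with its load of ribosomes, and no mRNA level was used here to separate them. Members were the genes of the deposited table named Pcdh with a number or with an alpha, beta or gamma cluster label, and where a symbol had several rows the row with the highest mean was taken. This gave 67 of the table's 48431 genes: 13 alpha, 22 beta and 21 gamma genes of the clustered family and 11 non-clustered genes. Of these, 66 were matched to the GENCODE M21 annotation of GRCm38. The row called Pcdhga8 in the table carried the identifier of Pcdhgc4 (ENSMUSG00000023036) and is called Pcdhgc4 here, so that the gamma genes were 11 of type A, 7 of type B and 3 of the C-type. The row with the identifier of Pcdhga8 itself was not a member, and it had a mean of 8.34 ± 1.24 CPM, reads scaled to a library total of 1000000 (SD, n = 4).

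All 4 libraries came from 1 group: wild-type SW mice, female, given paclitaxel at 4 mg/kg into the peritoneum on alternate days for 4 injections. Paclitaxel is a microtubule-stabilising cancer drug that can cause painful peripheral neuropathy. Neither the age of the mice nor a link from libraries to single animals was in the labels, so each SD and p-value measures the spread between these libraries, which may be technical. Libraries without paclitaxel were not analysed here, so no value below is an effect of the drug.

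In the clustered family, each gene has its own promoter and a large variable exon that codes for the outside of the protein and the membrane span. In the alpha and gamma clusters this exon is spliced to a common set of constant exons, whereas the beta genes stand without them. The proteins bind like to like between cell surfaces, and mouse neurons use the combination they carry to tell their own branches from those of other neurons. The C-type genes at the end of the alpha and gamma clusters are known in mouse brain for more regular expression than the stochastically chosen alternate genes. The non-clustered delta proteins are each coded by a gene of their own. Among the members here are delta1 proteins (Pcdh1, Pcdh7 and Pcdh9) and delta2 proteins (Pcdh8, Pcdh10, Pcdh17, Pcdh18 and Pcdh19). Some of these recruit the actin-regulating WAVE complex.

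The libraries held 5731508, 9255059, 14633421 and 10424949 assigned reads in replicates 1 to 4, as recovered from the value of 1 read. A count of 0 leaves room for 3 reads, which is 0.523, 0.324, 0.205 and 0.288 CPM. Intervals and floors cover counting error only. All 10 neuronal, 8 satellite glia and 9 myelinating Schwann cell markers were detected, meaning at 1 CPM or more in all 4 libraries, as were 6 of 6 fibroblast, 8 of 8 endothelial and 8 of 8 macrophage markers. Of 6 spinal cord glia markers 4 were detected, and Olig2 and Opalin were not. Summed neuronal markers ranged from 12963 to 15138 CPM, satellite glia markers from 8011 to 9017, Schwann cell markers from 12628 to 19543 and fibroblast markers from 10235 to 18046. In such bulk tissue, fewer cells of a type and less RNA per cell cannot be told apart.

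Protein sequence was not used here. For orientation, the first 30 coding bases of 4 well-detected non-clustered genes, which lie apart from the clusters, are given from the GENCODE M21 transcripts (GRCm38), about 1 footprint in length, with the start codon in capitals.
Pcdh7: ATGctgaggatgcggaccacgggatgggcg
Pcdh9: ATGgacctgagggatttttacctgttggct
Pcdh10: ATGattgtgctgttattctttgccttgctc
Pcdh17: ATGtacctttccatctgttgctgcttcctt
These lie on chromosome 5 (plus strand), 14 (minus), 3 (plus) and 14 (plus). Of the 9 non-clustered genes on other chromosomes than the clusters, 2 had G as the base after ATG, as in Pcdh9 above, beside 49.3% of 20356 genes with a coding start. A purine stood 3 bases before ATG in 8 of the 9, beside 84.0% of all genes.

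Footprints were found on most of the family. In all, 61 of 67 members were detected, or 91.0%, beside 30.4% of all genes and 62.5% of protein-coding genes. Detected were 10 of 13 alpha, 21 of 22 beta, 20 of 21 gamma and 10 of 11 non-clustered genes. Levels were mostly low: the median over all 67 members, detected or not, was 8.75 CPM, beside 19.3 CPM over the detected genes only. Per kilobase of coding sequence, 6 of the 61 detected members lay above the median of all detected genes, which was 15.1 CPM per kb. These were Pcdh1, Pcdhac2, Pcdhgc3, Pcdh7, Pcdh9 and Pcdh10. The order of the members was similar between libraries, with Spearman's rho between 0.929 and 0.959 over 67 genes. Within a cluster it was less regular for some pairs of libraries. There rho ran from 0.896 to 0.984 for alpha, 0.843 to 0.922 for beta and 0.725 to 0.974 for gamma genes.

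**Figure D1:**
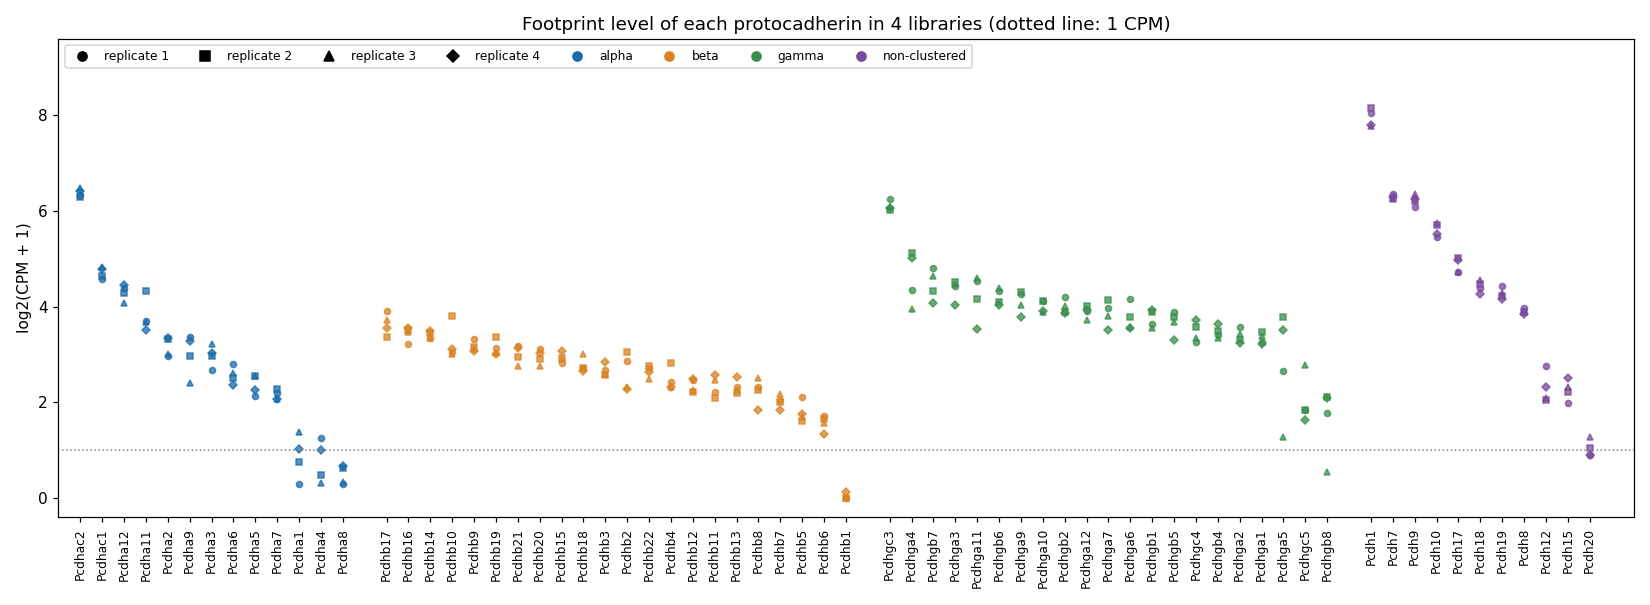
Footprint level of all 67 members on the y axis as log2(CPM + 1), by gene on the x axis, with 1 marker shape per library and 1 colour per cluster. Pcdh1 lies highest, followed by Pcdhac2, Pcdh7, Pcdh9 and Pcdhgc3, and most beta genes lie below 10 CPM.

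Pcdh1 (chr18:38185914-38212053, minus strand), a delta1 protocadherin also known from airway epithelium, had the highest level of the family. Its values were 265, 283, 218 and 221 CPM in replicates 1 to 4, a mean of 247 ± 32.4 (SD, n = 4), or 76.3 ± 10.02 CPM per kb. Its 95% Wilson interval ran from 252 to 279 CPM in replicate 1 and from 211 to 226 in replicate 3. Replicates 1 and 2 lay above 3 and 4 by more than this counting error. Pcdh1 made up 45.8% ± 3.48 of the summed CPM of the 11 non-clustered genes.

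Pcdh7 (chr5:57717967-58133230) and Pcdh9 (chr14:93013410-93890679), the other delta1 members, were next among the non-clustered genes. Pcdh7 had 80.8, 76.6, 75.6 and 77.4 CPM and varied least of the detected members, by 1.07-fold between its lowest and highest library. Pcdh9 had 66.5, 72.9, 81.0 and 75.5 CPM, lowest in the shallowest library. Per kilobase they stood at 20.6 ± 0.598 and 19.9 ± 1.62 CPM (SD, n = 4), and their log2 ratio in CPM, 0.07 ± 0.16, was within its spread.

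The delta2 genes lay lower. Pcdh10 (chr3:45378398-45435623), a tumour suppressor candidate that in mouse guides axons of the forebrain, had 43.3, 51.6, 53.0 and 44.9 CPM. Pcdh17 (chr14:84443563-84539002), which acts at synapses of the mouse basal ganglia, had 25.5, 31.2, 25.5 and 30.3 CPM. Both delta2 genes were thus below Pcdh1, Pcdh7 and Pcdh9 in every library. Pcdh18 had 20.1, 21.4, 22.7 and 18.1 CPM. Pcdh19, the X-linked gene mutated in a human epilepsy of girls, had 20.6, 17.6, 18.6 and 16.8 CPM. Pcdh8, whose product is induced by activity in rat hippocampus, had 14.8, 13.9, 13.7 and 13.3 CPM. None of the 3 had a library apart from the rest. The summed delta1 level exceeded the delta2 level by 1.61 ± 0.10 on the log2 scale (SD, n = 4), in 4 of 4 libraries, and by 1.56 ± 0.11 per kilobase. The 2-sided exact sign-flip permutation p was 2/16, the smallest that 4 libraries allow, so that no such ratio could reach 0.05. The same p was found for all 7 group ratios given here, before and after Benjamini-Hochberg adjustment over the 7.

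The remaining non-clustered genes were low. Pcdh12, an endothelial protocadherin, had a mean of 4.05 ± 1.204 CPM, and the hair cell tip-link gene Pcdh15 had 3.84 ± 0.723 CPM (SD, n = 4). Pcdh20 was not detected by the rule, with 0.872, 1.08, 1.44 and 0.863 CPM. The 5 reads in replicate 1 allow 0.373 to 2.04 CPM (95% Wilson), so the threshold of 1 CPM lay inside the counting error. Pcdh11x, left out by the naming rule and so absent from the delta1 sum, had a mean of 3.69 ± 1.01 CPM.

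The alpha cluster (chr18:36930184-37187661) had its highest levels at the C-type genes. Pcdhac2, which mouse serotonergic axons need for even spacing, had 79.9, 77.3, 88.3 and 84.3 CPM and was second in the family both in CPM and per kilobase (27.3 ± 1.61, SD, n = 4). It held 46.6% ± 2.33 of the summed alpha level. Pcdhac1 had 22.8, 23.9, 27.7 and 26.7 CPM. Both C-type genes were higher in replicates 3 and 4 than in 1 and 2. The 11 alternate alpha genes together stayed below these 2, by 0.63 ± 0.19 on the log2 scale and by 0.55 ± 0.19 per kilobase, in 4 of 4 libraries (exact permutation p = 2/16). As alternate over C-type, that log2 ratio of -0.63 became -0.39 ± 0.20 with the second Pcdha11 row included, and -3.24 ± 0.19 with the median gene of each set in place of the sum.

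Among the alternate alpha genes the level was highest next to the C-type genes. Pcdha12, the nearest, had 20.05, 18.7, 15.9 and 20.97 CPM. Pcdha11 had 12.1, 19.2, 11.9 and 10.4 CPM in the row taken by the rule, high in replicate 2 alone. A second row of that symbol, with another identifier and a place before it in the cluster, had 12.4, 12.7, 9.35 and 16.3 CPM. Pcdha2 to Pcdha9, leaving aside Pcdha4 and Pcdha8, had means from 3.47 (Pcdha7) to 8.0005 CPM (Pcdha2). Pcdha1, Pcdha4 and Pcdha8 were below 1 CPM on average and were not detected. Over the 12 alternate rows the Spearman correlation of mean CPM with position was 0.54, and 0.71 over 14 with the C-type genes, as a description of genes that share libraries and exons.

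Pcdha4 has almost no coding sequence of its own in the annotation. Its values were 1.38, 0.401, 0.248 and 0.9997 CPM, and 0.782% of its 30-nt coding words were found in no other annotated gene. The read-through gene Gm42416, which spans the alpha to gamma clusters, contains 83.8% of those words and had 5.98, 8.08, 7.20 and 8.69 CPM. The sum of both was 8.24 ± 1.09 CPM (SD, n = 4), a level within the range of the detected alternate alpha genes. How much of the Gm42416 level belongs to Pcdha4 was not tested.

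**Figure D2:**
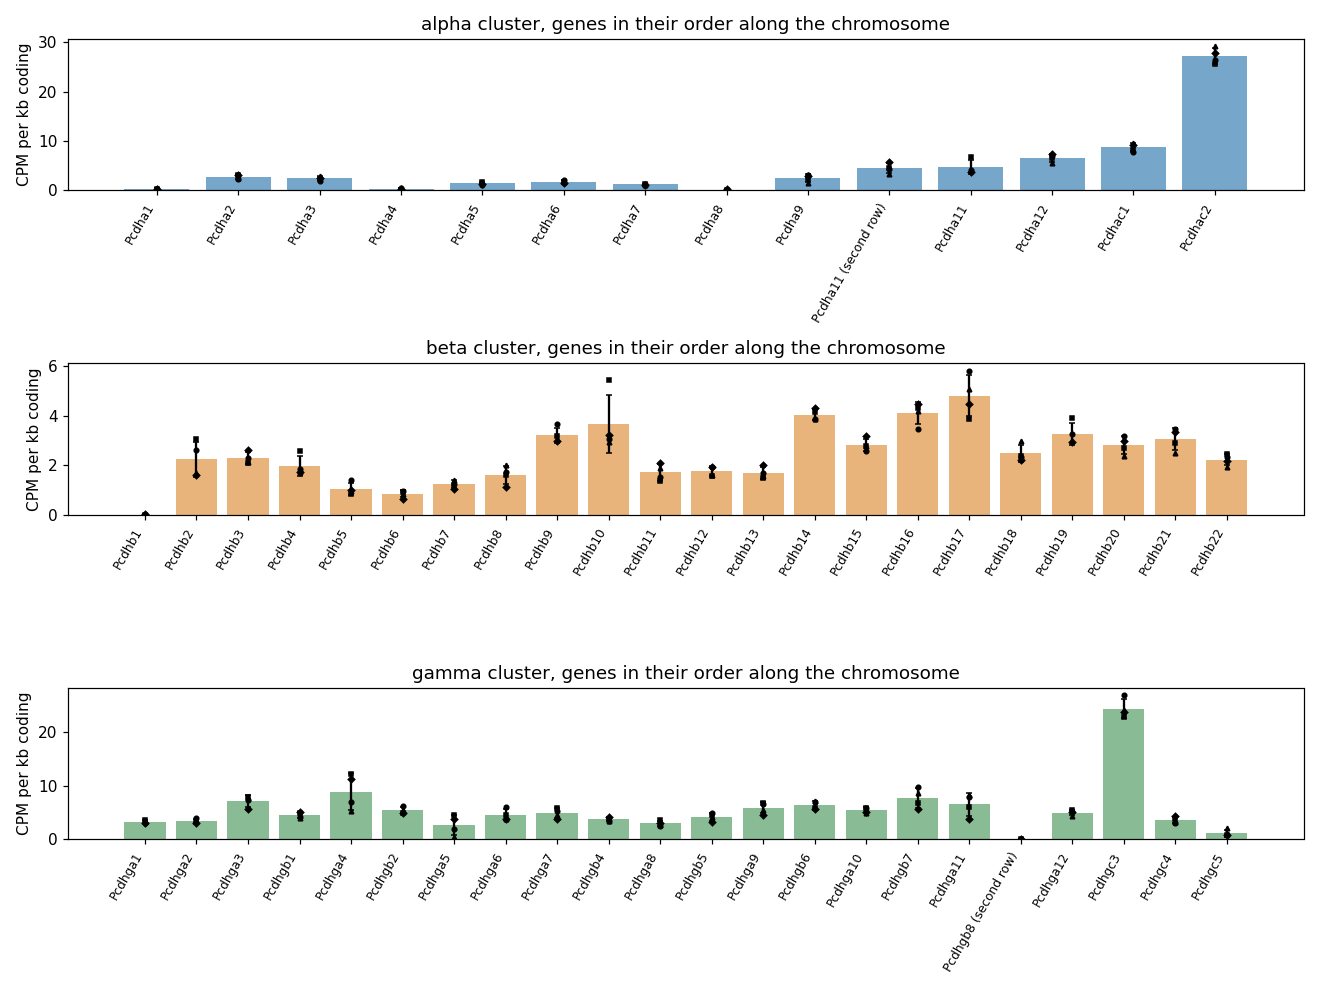
CPM per kilobase of coding sequence for the rows of the alpha, beta and gamma clusters in chromosomal order, with bars for the mean, error bars for the SD and markers for the 4 libraries. Pcdhac2 at 27.3 and Pcdhgc3 at 24.3 CPM per kb stand above their clusters, and the highest beta gene reaches 4.81.

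The beta genes (chr18:37264938-37524479), which have 1 coding exon each, were low and close to each other. Of 22 genes 21 were detected, with means from 1.99 CPM (Pcdhb6) to 11.5 CPM (Pcdhb17). Pcdhb17 had 14.0, 9.29, 12.2 and 10.7 CPM. Its counting interval was 11.2 to 17.4 CPM in replicate 1 and 7.52 to 11.5 in replicate 2. Pcdhb16, Pcdhb14 and Pcdhb10 followed per kilobase, at 4.12 ± 0.436, 4.05 ± 0.217 and 3.66 ± 1.18 CPM per kb (SD, n = 4). The Pcdhb10 mean was raised by replicate 2, at 13.0 CPM beside 7.33, 7.04 and 7.67 CPM in replicates 1, 3 and 4. The exception was Pcdhb1, at the start of the cluster, with 0, 0, 0 and 0.0959 CPM, the last being 1 read. The 0 reads allow up to 0.523, 0.324 and 0.205 CPM in replicates 1 to 3. The Spearman correlation of mean CPM with position along the cluster was 0.56 over 22 genes.

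The gamma cluster (chr18:37661793-37841873) had the highest sum of the clusters and a broad spread of genes. Pcdhgc3 led it with 75.2, 63.7, 67.4 and 66.3 CPM, or 24.3 ± 1.77 CPM per kb (SD, n = 4) and 20.5% ± 1.53 of the gamma sum. The other C-type genes were far lower. Pcdhgc4, the isoform that mouse spinal interneurons need to survive, had 8.61, 10.9, 9.22 and 12.1 CPM. Pcdhgc5 had 2.57, 2.56, 5.84 and 2.08 CPM, with replicate 3 above the rest. The 11 type A and 7 type B genes together exceeded the 3 C-type genes, by 1.61 ± 0.14 on the log2 scale and by 1.59 ± 0.14 per kilobase, in 4 of 4 libraries (exact permutation p = 2/16). With Pcdhgc4 counted as type A, as its symbol in the table has it, the difference was 1.86 ± 0.15, and with the median gene of each set in place of the sum it was 0.39 ± 0.32.

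The A and B genes were mostly close to each other. Pcdhga4 had the highest mean of type A, with 19.3, 34.0, 14.5 and 31.6 CPM. Pcdhgb7 had the highest of type B, with 27.1, 19.0, 23.9 and 16.004 CPM. Replicates 2 and 4 were thus high for Pcdhga4 and low for Pcdhgb7.
Pcdhga3 had 20.6, 21.8, 21.4 and 15.5 CPM. Pcdhga11 had 22.2, 16.8, 23.3 and 10.5 CPM. Pcdhgb6 had 19.2, 16.04, 19.99 and 15.5 CPM. All 3 were lowest in replicate 4.
Pcdhga9 had 18.4, 18.9, 15.5 and 12.8 CPM. Pcdhga10 had 16.3, 16.5, 13.9 and 14.0 CPM. Pcdhgb2 had 17.4, 13.8, 15.3 and 13.7 CPM. These differed by at most 1.48-fold between libraries.
Pcdhga12 had 14.2, 15.1, 12.2 and 14.2 CPM. Pcdhga7 had 14.8, 16.6, 12.9 and 10.5 CPM. Pcdhga6 had 17.0, 12.9, 10.9 and 10.7 CPM. Pcdhgb1, with 11.5, 13.8, 10.8 and 14.2 CPM, closed the 25 highest members of the family. The other detected A and B genes, Pcdhgb5, Pcdhgb4, Pcdhga2, Pcdhga1 and Pcdhga5, had means from 7.47 to 11.8 CPM. Pcdhgb8 was not detected, with 2.42, 3.32, 0.469 and 3.29 CPM in a row whose identifier is not in GENCODE M21. A second row of that symbol, whose identifier is in M21, had a mean under 1 CPM and was not a member. Along the cluster there was little order, with a Spearman correlation with position of 0.16 over 19 A and B rows.

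Summed over genes, the clusters ranked in the same order in every library. Alpha genes summed to 171, 177, 179 and 181 CPM, beta genes to 130, 131, 121 and 124, and gamma genes to 355, 351, 319 and 311. Non-clustered genes summed to 546, 576, 517 and 507 CPM. Gamma exceeded alpha by 0.91 ± 0.13 and beta by 1.39 ± 0.06 on the log2 scale (SD, n = 4). Beta lay below alpha by a log2 ratio of -0.48 ± 0.08, and by only -0.18 ± 0.08 per kilobase, since beta coding sequences are shorter. The 56 clustered genes together exceeded the 11 non-clustered genes by 0.25 ± 0.04, or 0.55 ± 0.04 per kilobase. Each of these held in 4 of 4 libraries (exact permutation p = 2/16). With the median gene of each set in place of the sum, the last comparison turned to -1.26 ± 0.20, the median clustered gene being the lower, and beta over alpha was -0.18 ± 0.15.

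**Figure D3:**
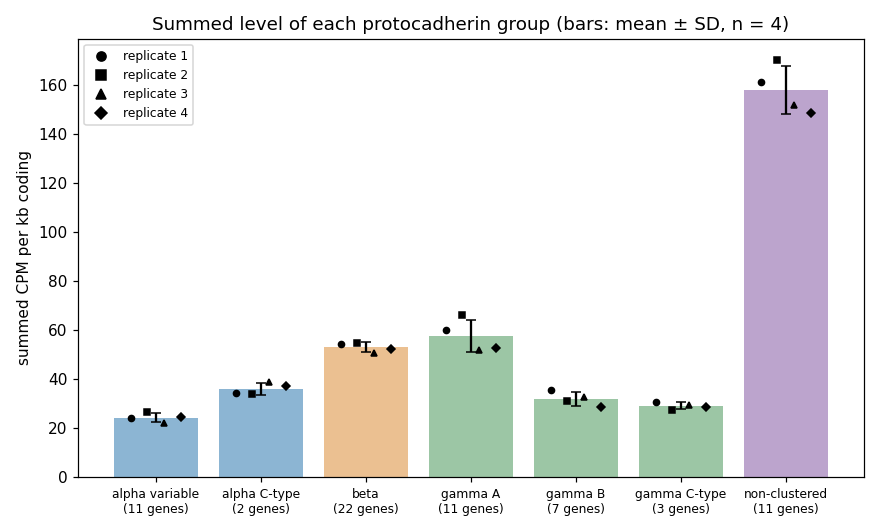
Summed CPM per kilobase of coding sequence on the y axis for 7 groups on the x axis, with bars for the mean, error bars for the SD over 4 libraries and markers for each library. The non-clustered genes reach 158 CPM per kb, and the alpha C-type pair exceeds the 11 alternate alpha genes in every library.

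In the order of the 15 highest members, 3 of 14 neighbouring pairs differed by more than 1 SD of their within-library log2 ratio. The order was taken from the mean CPM of these same libraries. The direction of a pair in CPM was therefore set by the ranking, and its p-value is no independent support for it. Pcdh1 exceeded Pcdhac2 by 1.56 ± 0.27, Pcdhgc3 exceeded Pcdh10 by 0.49 ± 0.22, and Pcdh10 exceeded Pcdh17 by 0.76 ± 0.20, each in 4 of 4 libraries (exact permutation p = 2/16, adjusted over the 14 pairs 0.583). From Pcdhac2 down to Pcdhgc3, and from Pcdh17 down to Pcdhga11, neighbours did not differ beyond 1 SD. Per kilobase of coding sequence 8 of 14 pairs differed by more than 1 SD and 4 turned their order, among them Pcdh9 over Pcdhgc3, at -0.28 ± 0.19 on the log2 scale.

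The alpha and gamma levels are estimates of a different kind from the rest. All 22 beta and all 11 non-clustered genes had values equal to a whole number of reads, within 0.05, in all 4 libraries, whereas this held for 0 of 13 alpha genes and 1 of 21 gamma genes (Pcdhga1). The alpha genes share 3 coding exons of 59, 89 and 308 nt (chr18:37156155-37156213, chr18:37159265-37159353 and chr18:37184946-37185253), 456 nt in all. The gamma genes share 3 of 59, 89 and 224 nt (chr18:37825021-37825079, chr18:37833265-37833353 and chr18:37839903-37840126), 372 nt in all. A footprint in these exons is common to all genes of the cluster. The processed transcript Gm38182 (chr18:37823879-37840382, plus strand) also covers the gamma constant exons and had 10.7 to 12.5 CPM, a level not counted in the gamma sums. On the sense strand, the median share of a gene's 30-nt coding words found in no other annotated gene was 65.8% for alpha, 84.1% for gamma, 82.1% for beta and 100% for non-clustered genes. How the reads of shared exons were divided, and whether strand was used, was not given in the sources used here, so a gene and its antisense partner cannot be told apart. The antisense or opposite-strand genes Gm10545, Gm26672, BC037039, Gm37446 and 4932441J04Rik had at most 0.349 CPM in any library. Gm37118, which holds 12.7% of the words of Pcdhga1 on the opposite strand, had 0.872 to 1.44 CPM, and Gm9748, opposite Pcdh8, had 1.78 to 4.01 CPM.

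Between libraries, the share of variable members was near that of all genes. With limma, the variance of log2(CPM + 1) was tested against that of genes of the same level for 63 members with a mean of at least 1 CPM, and 1 was called at an adjusted p below 0.05, or 1.59%, beside 1.54% of all 15728 genes tested. At an unadjusted p under 0.05 there were 4 members, or 6.35%, beside 6.61% of all genes. The median coefficient of variation of detected members was 13.5%, beside 13.3% for all detected genes, and it was 9.74% for non-clustered, 13.5% for beta, 15.2% for gamma and 15.8% for alpha genes.

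The called gene was Pcdhga5, with 5.27, 12.8, 1.43 and 10.4 CPM. Replicates 2 and 4 were high and replicate 3 lay 8.90-fold below the highest. Its SD on the log2 scale was 1.12, where genes of its level had 0.25 (limma, adjusted p = 0.032). The call was lost without replicate 2, where the SD stayed at 1.12 (limma, adjusted p = 0.10), and without replicate 3, where the SD was 0.59 (limma, adjusted p = 0.66). Of its 30-nt coding words, 85.3% were found in no other annotated gene. The other genes with an unadjusted p under 0.05 were Pcdhga4 (limma, adjusted p = 0.18), Pcdhga11 (0.38) and Pcdhgb8 (0.43).

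**Figure D4:**
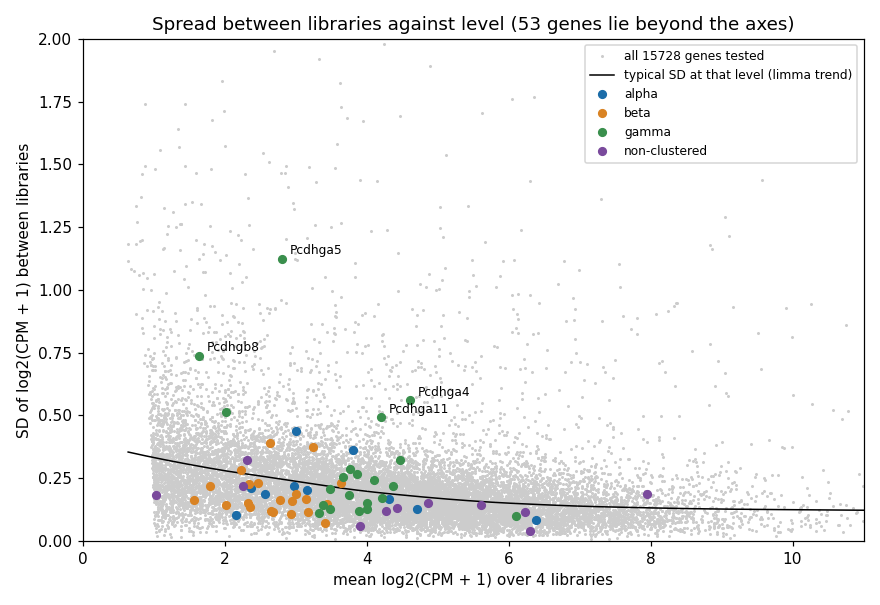
SD of log2(CPM + 1) over 4 libraries against its mean, for all 15728 genes tested in grey and the tested members by cluster. The line is the typical SD at each level in limma's fit, 53 genes lie beyond the axes, and Pcdhga5 at an SD of 1.12 lies farthest from the line among the members.

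Pcdhga5 shared its pattern with Pcdhga4, from which Pcdhgb2 separates it in the cluster, and their sum was 24.6, 46.8, 15.97 and 42.0 CPM. The pattern was not limited to these neighbours. Pcdhgb8, which was not detected, had the same order of libraries as Pcdhga5. Pcdhgc4, Pcdhgb1 and the second Pcdha11 row were also highest in replicates 2 and 4. Pcdhga11 and Pcdhgb7, which are adjacent, were high instead in replicates 1 and 3, with a sum of 49.3, 35.8, 47.2 and 26.5 CPM. The sum of all 37 alpha and gamma rows varied less in proportion, as sums over many rows tend to, at 545, 550, 515 and 517 CPM. The ribosomal RNA of mitochondria, mt-Rnr2, stood at 23520, 61455, 0 and 52082 CPM, so its libraries had the same order as those of Pcdhga5. Summed Schwann cell markers, all 9 of 9 detected, were 19340, 14206, 19543 and 12628 CPM, high in the libraries where Pcdhga11 and Pcdhgb7 were high. Summed endothelial and macrophage markers were also highest in replicates 1 and 3. Those of neurons, satellite glia, fibroblasts and spinal cord glia were not. With values rescaled without mitochondrial genes and the 20 highest genes, Pcdhga5 had an SD of 1.19 on the log2 scale (limma, adjusted p = 0.020). The rescaling changes all genes of a library by the same factor, so it could not remove a spread particular to a single gene. The part of these differences between libraries in the protocadherin values was not tested.

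**Figure D5:**
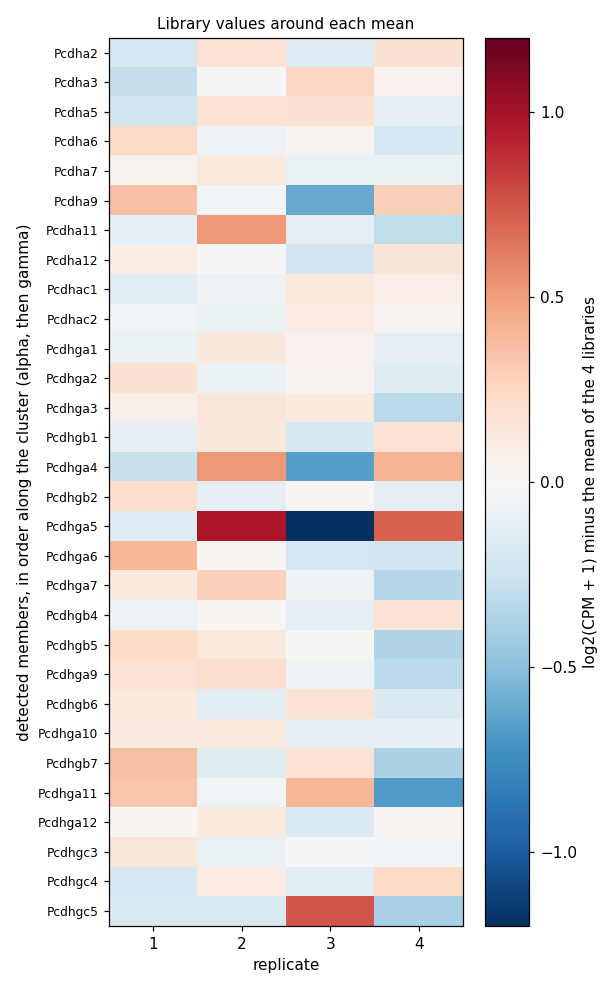
Detected alpha and gamma members in cluster order (rows) by replicate (columns), coloured by log2(CPM + 1) minus the gene's mean over 4 libraries. Pcdhga5 and Pcdhga4 are high in replicates 2 and 4 and low in 3, and Pcdhga11 is low in replicate 4.

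Genes known to work with protocadherins, and related cadherins and catenins, were mostly detected. For scale, 62.5% of protein-coding genes and 30.4% of all genes were detected. Of 18 factors of promoter choice and chromatin, 17 were detected and Dnmt3b was not, with the cohesin subunits Smc1a at 51.1 ± 2.62 and Rad21 at 70.4 ± 5.57 CPM per kb (SD, n = 4). All 16 cytoplasmic partners and WAVE complex genes were detected, with a median of 44.8 CPM per kb, among them the actin regulators Cyfip2 at 108 ± 3.61 and Nckap1 at 64.9 ± 3.41. All 10 shedding enzymes and neuroligins were detected, led by the protease Adam10, which sheds gamma protocadherins in mouse, at 77.2 ± 8.57 CPM per kb. Of 25 classical cadherins and catenins 23 were detected, at a median of 11.4 CPM per kb, and Cdh1 reached 179 ± 6.23. Not detected were Cdh22, with a mean of 0.292 CPM, and Cdh24, with a mean of 0.984 CPM, near the threshold. Of 15 large atypical cadherins, with the member Pcdh15 among them, 14 were detected, at a median of 7.43 CPM per kb. Cdh23, the tip-link partner of Pcdh15, missed the detection rule narrowly, with 1.05, 0.972, 1.02 and 1.15 CPM. The median over all protocadherin members with a coding length was 3.34 CPM per kb.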

How the data were processed

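Ribosome footprints of 4 libraries were used. Spin columns were used to collect the ribosome-bound RNA, rRNA was removed and footprints were cut by size from a gel, per the labels' protocols. Cufflinks 2.2.1, TopHat2 2.1.1, Bowtie2 2.2.9 and FastQC 0.11.5 are listed, with no roles, in the submitters' processing notes. The sources used here do not give how reads were counted or on which annotation release. The authors deposited values in a table named for TPM, which were read as CPM: each column summed to 1000000, and a step common to genes of all lengths divided 96.5% to 96.8% of the nonzero values into whole reads, within 0.05. The tests planned for TPM were run on CPM, and CPM per kilobase of coding sequence was the planned length alternative. Sample columns not used numbered 0.

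Computed here were means and SDs, detection at 1 CPM in all libraries, within-library log2 ratios with a pseudocount of 1 and 2-sided exact sign-flip permutation tests, and the between-library variance F test of limma 3.58.1 on log2(CPM + 1) for genes whose mean reached 1 CPM. That test used a trended robust prior and Benjamini-Hochberg adjustment over all genes. Identifiers were matched to GENCODE M21 (48052 matched, 379 not), with coordinates on GRCm38 counted from 1.

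Values by library were given for the 25 highest detected members, C-type members, the highest of each group and called members, and other genes came from fixed lists, by detected and undetected members. The members and lists were chosen with earlier results of these data known. Naming rows by identifier, the shared-exon, unique-word and whole-read checks, summed gene pairs, position correlations and the printed start sequences, which replaced planned protein sequences, were chosen after the values were seen. Alternatives tried were the pseudocount, filter, detection threshold, normalisation, length, summary, duplicate rows and leaving out each replicate.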

Additional observations from a re-analysis of the deposited data

Results flagged for a closer look

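Among 79 member levels and group sums checked, 4 had 1 library far from the other 3, where chance alone flags about 1 in 20 groups. Pcdhb10 stood at 13.0 CPM in replicate 2, above 7.33, 7.04 and 7.67 CPM in replicates 1, 3 and 4. Pcdhb4 stood at 6.05 CPM in replicate 2, above 4.36, 4.03 and 4.03 CPM. Pcdhgc5 stood at 5.84 CPM in replicate 3, above 2.57, 2.56 and 2.08 CPM. Pcdhb1 stood at 0.0959 CPM in replicate 4, which is 1 read, with no read in the other libraries.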

How the results depend on the processing

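No paired analysis was possible because all libraries belong to 1 group. The alternative with edgeR was not run, since the values are not whole reads throughout. Detected members numbered 61 and ranged from 61 to 62 without single replicates; a threshold of 5 CPM gave 42. Members called variable numbered 1, but 4 with no filter on low values (Pcdhga5, Pcdhga4, Pcdhga11 and Pcdhgb8, where 2.57% of all genes were called), and 0 to 1 without single replicates. Of 70 alternative group ratios 69 kept their direction; clustered over non-clustered turned from 0.25 to -1.26 (log2) with medians in place of sums. Without single replicates, group ratios ranged from 0.86 to 0.95 for gamma over alpha, 1.37 to 1.42 for gamma over beta, -0.51 to -0.45 for beta over alpha, 0.24 to 0.27 for clustered over non-clustered, 1.58 to 1.66 for delta1 over delta2, 1.55 to 1.65 for gamma A and B over C-type, and -0.70 to -0.55 for variable over C-type alpha. Of 98 neighbour ratios 11 turned. Per kilobase, Pcdh9 over Pcdhgc3 became -0.28, Pcdh17 over Pcdhac1 -0.10, Pcdh18 over Pcdhga3 -0.20 and Pcdh19 over Pcdhga11 -0.20, where coding lengths differ. Without single replicates, Pcdhgb7 over Pcdh18 ranged from -0.087 to 0.11, Pcdhga4 over Pcdhgb7 from -0.11 to 0.43, Pcdhac1 over Pcdhga4 from -0.16 to 0.29, Pcdhga3 over Pcdha12 from -0.053 to 0.22, Pcdha12 over Pcdh19 from -0.057 to 0.12 and Pcdh19 over Pcdhga11 from -0.12 to 0.19. The cause of the last 6 was not tested. With 3 libraries the smallest exact p is 0.25. Precision for genes under 5 CPM is limited by reads.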
